A study of Homo sapiens with 6 samples.

Results

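The UGT2B genes encode UDP-glucuronosyltransferases of subfamily 2B, and 7 of them were followed in LNCaP cells with and without urolithin A: UGT2B4, UGT2B7, UGT2B10, UGT2B11, UGT2B15, UGT2B17 and UGT2B28. The genes were chosen with earlier results of these data known, and all their probe sets were then taken by gene symbol. Counts of these genes are therefore a description. The genes make up 7 of the 18239 genes tested and 12 of the 45253 probe sets listed with a single gene symbol. LNCaP is an androgen-responsive human prostate cancer line from a lymph node metastasis, and urolithin A is a metabolite that gut bacteria make from ellagitannins of pomegranate, nuts and berries. Both groups were LNCaP cells in F12 medium with fetal bovine serum, of which 3 control arrays and 3 arrays of cells given 40 µM urolithin A for 24 h were made on the Affymetrix Human Genome U219 array. The control is called untreated in the sample titles and saline in the treatment protocol, and the solvent of urolithin A is not named. All arrays come from this single line, and nothing in the labels says that the 3 arrays of a group were separate cultures, and each p-value here reflects array-to-array spread alone, which may be technical. The deposited values are log signals, taken here as base 2 because no source names the base. They are relative to the median of the 3 controls, so 0 is the control median of each probe set. They give differences between arrays and no levels, so neither the abundance of a UGT2B transcript nor the presence of LNCaP markers could be checked.

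UDP-glucuronosyltransferases sit in the membrane of the endoplasmic reticulum and join glucuronic acid from UDP-glucuronate to small lipophilic molecules, which makes them water soluble and ready for export by transporters. In the prostate, UGT2B15 and UGT2B17 are the enzymes known for conjugating testosterone, dihydrotestosterone and androstanediol, a step that takes androgens out of action and that cannot be undone without a glucuronidase. Their transcripts are known to be repressed by androgens in LNCaP cells, while UGT2B28 is a further steroid-conjugating member, UGT2B7 handles opioids and many other drugs, UGT2B4 bile acids, UGT2B10 the nitrogen of nicotine, and UGT2B11 hydroxylated fatty acids.

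The genes are close relatives, and their upstream sequences show how close. The 250 bases before the start site are given for the 4 of 7 genes that matched the RefSeq promoter table (GRCh38.p14), because 2 of them rose on the arrays and 2 did not pass the test. Each reads 5′ to 3′ on the strand of its gene. Capitals mark matches to any of 4 short motifs searched on both strands: TATAAA (the TATA box), AGAACA (an arm of the androgen response element), TGTTTAC (the forkhead motif) and GTTAAT (an arm of the HNF1 motif).
UGT2B15, chr4:68670653-68670902, minus strand: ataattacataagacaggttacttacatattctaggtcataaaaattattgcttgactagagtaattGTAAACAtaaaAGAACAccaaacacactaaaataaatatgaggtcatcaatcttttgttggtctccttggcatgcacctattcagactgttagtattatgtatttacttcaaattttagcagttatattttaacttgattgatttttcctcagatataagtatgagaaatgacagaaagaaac
UGT2B10, chr4:68815744-68815993, plus strand: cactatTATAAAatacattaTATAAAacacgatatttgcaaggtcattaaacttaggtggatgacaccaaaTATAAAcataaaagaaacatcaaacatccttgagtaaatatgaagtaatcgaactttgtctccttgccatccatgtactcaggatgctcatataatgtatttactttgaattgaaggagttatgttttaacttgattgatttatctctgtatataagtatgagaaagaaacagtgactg
UGT2B11, chr4:69214749-69214998, minus strand: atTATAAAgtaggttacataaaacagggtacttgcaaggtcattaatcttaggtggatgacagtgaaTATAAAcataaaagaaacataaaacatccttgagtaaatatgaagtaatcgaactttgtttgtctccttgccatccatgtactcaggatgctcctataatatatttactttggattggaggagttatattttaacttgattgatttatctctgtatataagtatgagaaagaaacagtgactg
UGT2B7, chr4:69096224-69096473, plus strand: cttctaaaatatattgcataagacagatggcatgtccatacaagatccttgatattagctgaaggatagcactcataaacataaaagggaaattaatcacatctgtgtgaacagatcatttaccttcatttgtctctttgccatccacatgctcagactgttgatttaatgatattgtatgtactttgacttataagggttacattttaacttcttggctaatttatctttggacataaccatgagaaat

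The UGT2B15 window held AGAACA between 172 and 167 bases upstream and, on the opposite strand, TGTTTAC between 183 and 177 bases upstream, where the printed strand reads GTAAACA. The UGT2B10 window held TATAAA at 3 positions, starting 244, 230 and 179 bases upstream. The UGT2B11 window held TATAAA at 2 positions, starting 248 and 183 bases upstream. The UGT2B7 window held none of the 4 motifs, GTTAAT was found in none of the 4 windows, and no matches overlapped. Such letters are common: among 35116 promoter windows of the same length, 12.4% held AGAACA, 2.98% TGTTTAC, 10.7% TATAAA and 6.23% GTTAAT, so each match is a description of sequence and not a binding site. The UGT2B10 and UGT2B11 windows were identical at 90.2% of aligned positions, 229 of 254. The UGT2B15 window was 69.9% identical to that of UGT2B10 and 71.3% to that of UGT2B11, and the UGT2B7 window was 58.4% to 63.0% identical to the other windows.

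The androgen-conjugating genes UGT2B17 and UGT2B15 rose about 2-fold with urolithin A. UGT2B10 rose as well. UGT2B28 was lower by a change that passed among genes (limma adjusted p = 0.0479) and not among probe sets (limma adjusted p = 0.0538), and UGT2B7, UGT2B11 and UGT2B4 did not pass the test. With limma and Benjamini-Hochberg adjustment over all 49293 probe sets at a threshold of 0.05, 7 of the 12 UGT2B probe sets were higher, 0 were lower and 5 did not pass. Over the whole array, 4.01% of probe sets passed as higher and 4.4% as lower. Of the 12, 2 were lower at an unadjusted p under 0.05. In the limma fit by gene described below, 4393 of all 18239 genes had an unadjusted p under 0.05 in either direction. The urolithin A arrays lay entirely above the controls in 8 of the 12 probe sets and entirely below in 2, against 14.4% and 13.5% of all probe sets. When the probe sets of a gene were averaged and the fit was run over 18239 genes, 3 of 7 UGT2B genes were higher, 1 was lower and 3 did not pass, with 4.85% of all genes higher and 5.31% lower. In bulk RNA, fewer cells of a kind and less RNA per cell cannot be told apart.

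**Figure D1:**
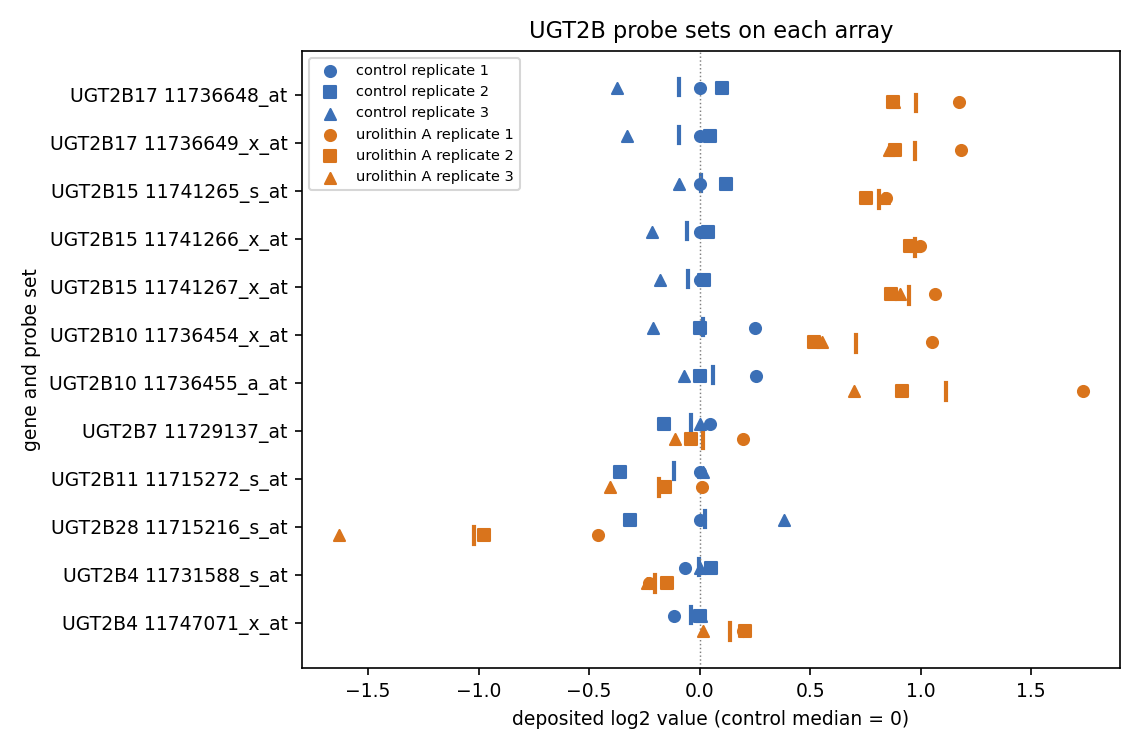
Deposited log2 value (horizontal axis, control median at 0) of each of the 12 UGT2B probe sets on each of the 6 arrays, with bars at the group means (n = 3). For UGT2B17, UGT2B15 and UGT2B10 every urolithin A point lies right of every control point, and for UGT2B28 every one lies left.

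UGT2B17, the enzyme that conjugates testosterone and dihydrotestosterone at the 17-hydroxyl group, is read by a pair of probe sets. On 11736648_at the control values were 0, 0.10 and -0.38 in replicates 1, 2 and 3, and the urolithin A values were 1.18, 0.88 and 0.88. All 3 urolithin A arrays stood clear of all 3 controls, and the widest deviation among controls was the low value of replicate 3. The change was 1.07 on the log2 scale (SE 0.142, 95% interval 0.75 to 1.39, n = 3 per group, limma adjusted p = 0.00334), or 2.10-fold. The probe set 11736649_x_at gave nearly the same picture, with controls at 0, 0.05 and -0.33 and urolithin A arrays at 1.18, 0.88 and 0.85. Its change was 1.07 (SE 0.132, limma adjusted p = 0.00243). Only the second of these carries the x suffix, by which Affymetrix marks probe sets whose probes can match other transcripts. The gene mean rose by 1.07 (SE 0.128, 95% interval 0.775 to 1.36, limma adjusted p = 0.00189).

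UGT2B15, the other main androgen-conjugating enzyme of the prostate, is read by 3 probe sets, all with an s or x suffix, which marks probes shared between transcripts. On 11741265_s_at the controls were 0, 0.12 and -0.09 and the urolithin A arrays 0.84, 0.75 and 0.83. Its change was 0.80 (SE 0.09, 95% interval 0.598 to 1.01, limma adjusted p = 0.00163), a 1.74-fold rise. The urolithin A arrays differed among themselves by less than the controls did. On 11741266_x_at the controls were 0, 0.04 and -0.21 and the urolithin A arrays 1.00, 0.95 and 0.97, a change of 1.03 (SE 0.0941, limma adjusted p = 0.000711). On 11741267_x_at the controls were 0, 0.02 and -0.18 and the urolithin A arrays 1.07, 0.86 and 0.91, a change of 1.00 (SE 0.0979, limma adjusted p = 0.00096). The groups were apart in all 3 probe sets, and the probe set with the s suffix gave the smallest change. The gene mean rose by 0.95 (SE 0.0776, 95% interval 0.768 to 1.12, limma adjusted p = 0.000406), with the tightest interval of the 4 genes that passed.

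UGT2B10, which attaches glucuronic acid to the nitrogen of nicotine and cotinine, rose as well, with more spread between arrays. On 11736454_x_at the controls were 0.25, 0 and -0.21 and the urolithin A arrays 1.05, 0.52 and 0.55, a change of 0.69 (SE 0.167, 95% interval 0.313 to 1.07, limma adjusted p = 0.0384). On 11736455_a_at, whose suffix marks probes shared by transcripts of 1 gene, the controls were 0.25, 0 and -0.07. There the urolithin A arrays were 1.73, 0.92 and 0.70, a change of 1.06 (SE 0.237, 95% interval 0.517 to 1.59, limma adjusted p = 0.0294). In both probe sets urolithin A replicate 1 stood highest, while the groups still did not overlap. With 1 array left out at a time, the first of these calls held in 1 of 6 fits (adjusted p from 0.0413 to 0.109) and the second in 2 of 6 (adjusted p from 0.0199 to 0.0911). The gene mean rose by 0.87 (SE 0.193, 95% interval 0.434 to 1.31, limma adjusted p = 0.0248), and without urolithin A replicate 1 it was 0.63. Leaving out control replicate 2 ended the call (adjusted p = 0.0773), and so did leaving out control replicate 3 (adjusted p = 0.0771).

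UGT2B28, which conjugates steroids, was the gene of the 7 that fell in the fit by gene. Its probe set 11715216_s_at read 0, -0.31 and 0.38 in the controls and -0.46, -0.98 and -1.63 in the urolithin A arrays. The groups did not overlap, but both were spread widely, and urolithin A replicate 3 lay far below replicate 1. The change was -1.04 (SE 0.278, 95% interval -1.68 to -0.413), which missed the threshold among probe sets (limma adjusted p = 0.0538) and passed it among genes (limma adjusted p = 0.0479). The gene call is thus a marginal one on a probe set shared between transcripts: with 1 array left out at a time the change ran from -1.33 to -0.74 and the adjusted p from 0.0214 to 0.131, and it passed in 1 of 6 fits, that without urolithin A replicate 1. HLA-DRA, a class II antigen gene, read 1.01, 0.03 and -0.02 in the controls and -0.02, 1.17 and 3.09 in the urolithin A arrays. Among the urolithin A arrays it therefore rose in the same order in which UGT2B28 fell, but the controls did not follow this order. The part of HLA-DRA in the UGT2B28 result was not tested. Without the array of each group in which HLA-DRA was highest, control replicate 1 and urolithin A replicate 3, the UGT2B28 change was -0.75 (limma adjusted p = 0.168). Leaving out urolithin A replicate 3 alone gave nearly the same change, -0.74 (limma adjusted p = 0.0842).

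UGT2B7, the enzyme of morphine glucuronidation, showed overlapping groups on its 1 probe set, 11729137_at. The controls were 0.05, -0.16 and 0 and the urolithin A arrays 0.20, -0.04 and -0.11, a change of 0.05 (SE 0.108, 95% interval -0.193 to 0.30, limma adjusted p = 0.833). UGT2B11, which acts on hydroxylated fatty acids, also overlapped on 11715272_s_at, with controls at 0, -0.36 and 0.02 and urolithin A arrays at 0.01, -0.16 and -0.40. Its change was -0.07 (SE 0.14, 95% interval -0.388 to 0.25, limma adjusted p = 0.833). These intervals leave out a rise of the size seen for UGT2B17, and they do not show that nothing changed.

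UGT2B4, a bile acid conjugating enzyme of the liver, gave opposite signs on its pair of probe sets. On 11731588_s_at the controls were -0.06, 0.05 and 0 and the urolithin A arrays -0.23, -0.15 and -0.24, a change of -0.20 (SE 0.0829, 95% interval -0.388 to -0.0109, limma adjusted p = 0.195). On 11747071_x_at the controls were -0.12, 0 and 0.01 and the urolithin A arrays 0.19, 0.21 and 0.02, a change of 0.18 (SE 0.0919, 95% interval -0.0333 to 0.385, limma adjusted p = 0.309). The groups were apart in both, once below and once above, and neither change passed. The gene mean of -0.01 (95% interval -0.171 to 0.147) is an average of these opposed values.

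**Figure D2:**
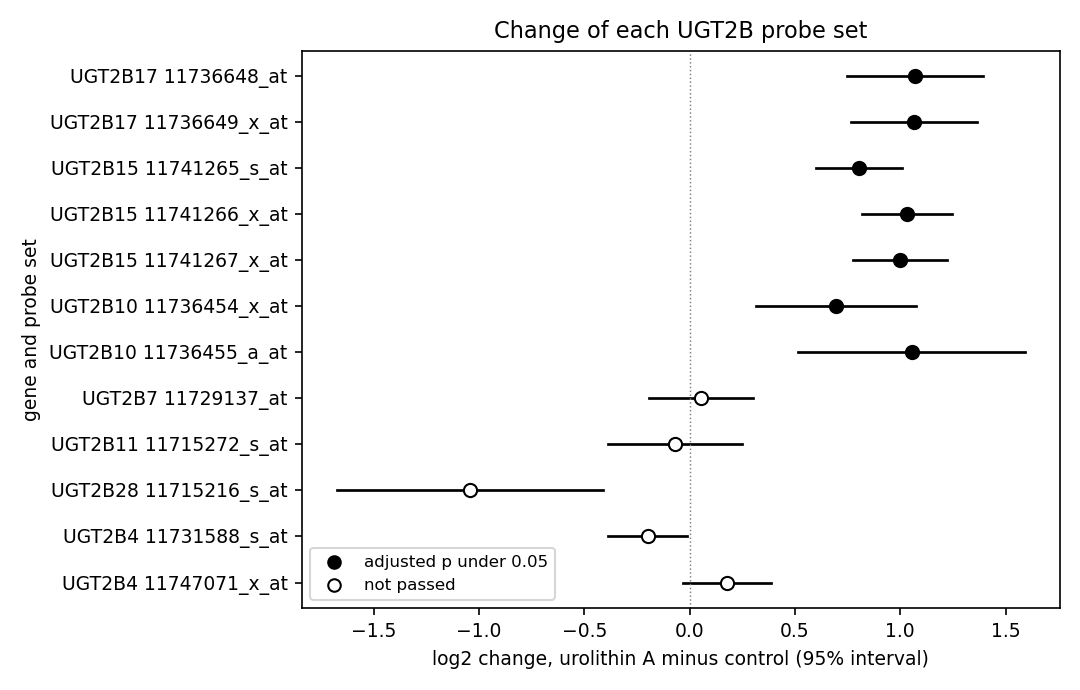
Log2 change, urolithin A minus control, of each UGT2B probe set with its 95% interval from limma (n = 3 arrays per group); filled points passed an adjusted p of 0.05. The 7 filled points are those of UGT2B17, UGT2B15 and UGT2B10, and the widest interval is that of UGT2B28.

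By gene mean the order from highest to lowest change was UGT2B17 (1.07), UGT2B15 (0.95), UGT2B10 (0.87), UGT2B7 (0.05), UGT2B4 (-0.01), UGT2B11 (-0.07) and UGT2B28 (-1.04). UGT2B17 was set against each other gene by taking the difference within every array and comparing the groups with an exact two-sided permutation test. Other pairs in that order were not compared. With 3 arrays against 3 there are 20 arrangements and the smallest possible p is 0.1, so no pair could pass 0.05. UGT2B17 rose more than UGT2B15 by 0.12 (exact permutation p = 0.4, adjusted over the 6 pairs 0.4) and more than UGT2B10 by 0.19 (exact permutation p = 0.3, adjusted 0.36). In both, the differences of the 3 control and 3 urolithin A arrays overlapped, so UGT2B17 was not separated from either gene. Against UGT2B7, UGT2B4, UGT2B11 and UGT2B28 the differences were 1.01, 1.08, 1.14 and 2.11, each at the smallest possible exact permutation p of 0.1 (adjusted 0.15).

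The agreement of UGT2B17 with UGT2B15 has to be read with their probes in mind. Their gene means differed by a root mean square of 0.117 on the log2 scale over the 6 arrays. Of the 12 probe sets, 4 have an s suffix, 5 an x suffix, 1 an a suffix and 2 none, and the annotation lists 0 probe sets under several symbols that include a UGT2B member. The probes themselves were not used here, so how far one transcript adds to the reading of another was not tested. The probe sets without any suffix were those of UGT2B17 (1.07) and UGT2B7 (0.05). UGT2B15, UGT2B11, UGT2B28 and UGT2B4 are read by s and x probe sets alone.

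**Figure D3:**
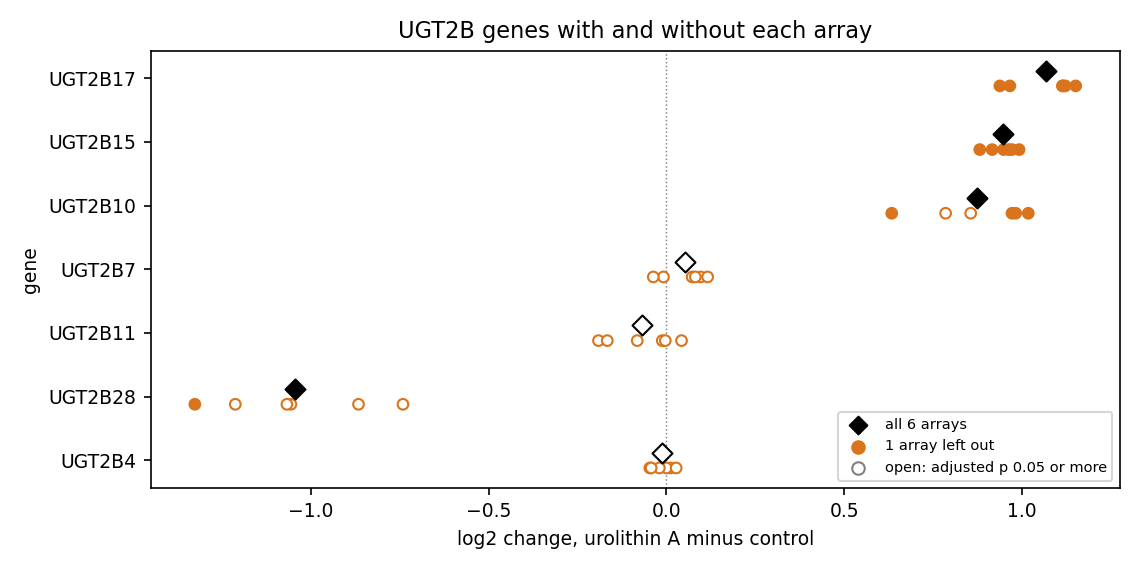
Log2 change of each UGT2B gene with all 6 arrays (diamonds) and with 1 array left out at a time (circles); open symbols had a limma adjusted p of 0.05 or more. UGT2B17 (0.94 to 1.15) and UGT2B15 (0.88 to 0.99) stayed past the threshold in all 6 fits, UGT2B10 in 4 and UGT2B28 in 1.

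UGT2B17 and UGT2B15 kept their calls whichever array was left out. For UGT2B17 the change ran from 0.94 to 1.15 with adjusted p between 0.00442 and 0.00812, and for UGT2B15 from 0.88 to 0.99 with adjusted p between 0.00187 and 0.00325. Both rises were larger than the spread of the arrays in each of these fits. Against a minimum change of 1.5-fold in place of 0, neither passed, with limma adjusted p of 0.434 for UGT2B17 and 0.189 for UGT2B15. Without limma's moderation of the variances the UGT2B17 gene missed the threshold as well (adjusted p = 0.0646), as did the UGT2B10 gene (0.187) and the UGT2B28 gene (0.255).

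The UGT2B genes lie in a single cluster on chromosome 4, and are described here in their order there (RefSeq, GRCh38.p14). UGT2B17, UGT2B15 and UGT2B10, the genes that rose, are consecutive. They are followed by UGT2A3, a related transferase outside the 7 (0.10, limma adjusted p = 0.442), then UGT2B7, UGT2B11, UGT2B28, UGT2B4 and UGT2A1 (0.09). On the side of UGT2B17 the next protein-coding genes were TMPRSS11E, a membrane serine protease, which was lower by gene mean (-0.52, limma adjusted p = 0.0227), and YTHDC1, a nuclear reader of methylated RNA, which was higher (0.30, limma adjusted p = 0.0298). The sulfotransferases beyond UGT2A1, SULT1B1 and SULT1E1, both changed by 0.01 and did not pass. These flanking genes were chosen after their values had been seen.

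**Figure D4:**
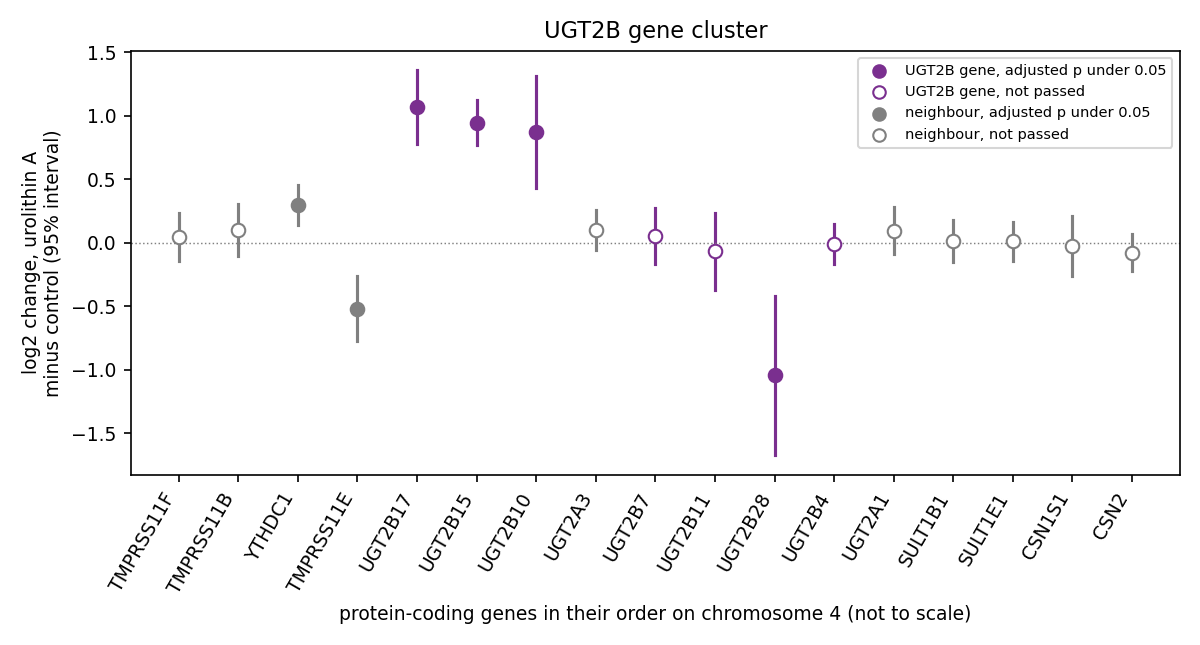
Log2 change with its 95% interval (limma, n = 3 arrays per group) of the UGT2B genes and flanking protein-coding genes in their order on chromosome 4; distances are not to scale. The 3 genes that rose stand side by side at the left of the cluster, and UGT2B28 (-1.04) lies between UGT2B11 (-0.07) and UGT2B4 (-0.01).

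Glucuronidation also depends on other transferases, on the supply of UDP-glucuronate and on export. Of the other transferases of the superfamily, 6 of 15 could be measured by probe sets of their own, and with limma 0 of 6 rose and 0 fell, 0 of them at an unadjusted p under 0.05, with changes from 0.01 to 0.10. The 8 probe sets listed with several UGT1A genes, which share their terminal exons, gave 0 calls in limma, 0 of them at an unadjusted p under 0.05, with changes from -0.18 to 0.22. Of 7 genes that supply UDP-glucuronate or cleave glucuronides, PGM1, which interconverts the glucose phosphates, rose by 0.31 (SE 0.072, limma adjusted p = 0.0286) and 6 did not pass. Neither of the PGM1 probe sets passed by itself, and the gene call was lost without control replicate 2 or 3 or urolithin A replicate 1 or 2 (adjusted p up to 0.0922). UGDH, the enzyme that makes UDP-glucuronate, changed by 0.28 (adjusted p = 0.0555) and SLC35D2, a nucleotide sugar transporter, by 0.40 (adjusted p = 0.053), both short of the threshold. The list medians were 0.07 and 0.03, beside 0.01 over all genes, of which 4.85% passed as higher and 5.31% as lower. An unadjusted limma p under 0.05 was reached by 4393 of all 18239 genes.

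Other enzymes that make, interconvert or sulfate androgens gave 1 rise and 1 fall among 21 measured of 24, with a median of 0.0005. These counts are near the shares over all genes, 4.85% higher and 5.31% lower. AKR1C3, which reduces androstenedione to testosterone, rose by 0.39 in the gene mean (limma adjusted p = 0.0406), but its probe sets were at odds, at 0.85 (adjusted p = 0.015) and -0.06 (adjusted p = 0.739). Its call held in 2 of 6 fits with an array left out and was lost without control replicate 1 or 2 or urolithin A replicate 2 or 3 (adjusted p up to 0.127). HSD17B4, a peroxisomal enzyme that can oxidise 17-hydroxysteroids, fell by 0.34 (limma adjusted p = 0.0138), which became 0.0538 without control replicate 2. Among 10 measured transporters that can export conjugates the median was 0.01, and 1 rose, 2 fell and 7 did not pass. ABCC4, an exporter of steroid conjugates, read -0.09, -0.03 and 0.19 in the controls and -1.49, -1.14 and -1.12 in the urolithin A arrays, so the groups were far apart. It fell by 1.27 (SE 0.118, limma adjusted p = 0.000709), or 2.42-fold, with 4 of 4 probe sets lower, and so moved opposite to UGT2B15 and UGT2B17. ABCC1 fell by 0.34 (adjusted p = 0.0202) through 1 passing probe set of 3, a call that held in 1 of 6 fits with an array left out, that without control replicate 2 (adjusted p from 0.0222 to 0.0732). ABCC10 changed by 0.41 (adjusted p = 0.0485 by gene), but its single probe set did not pass (adjusted p = 0.0719) and the gene passed in 0 of 6 fits with an array left out (adjusted p from 0.0589 to 0.149).

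**Figure D5:**
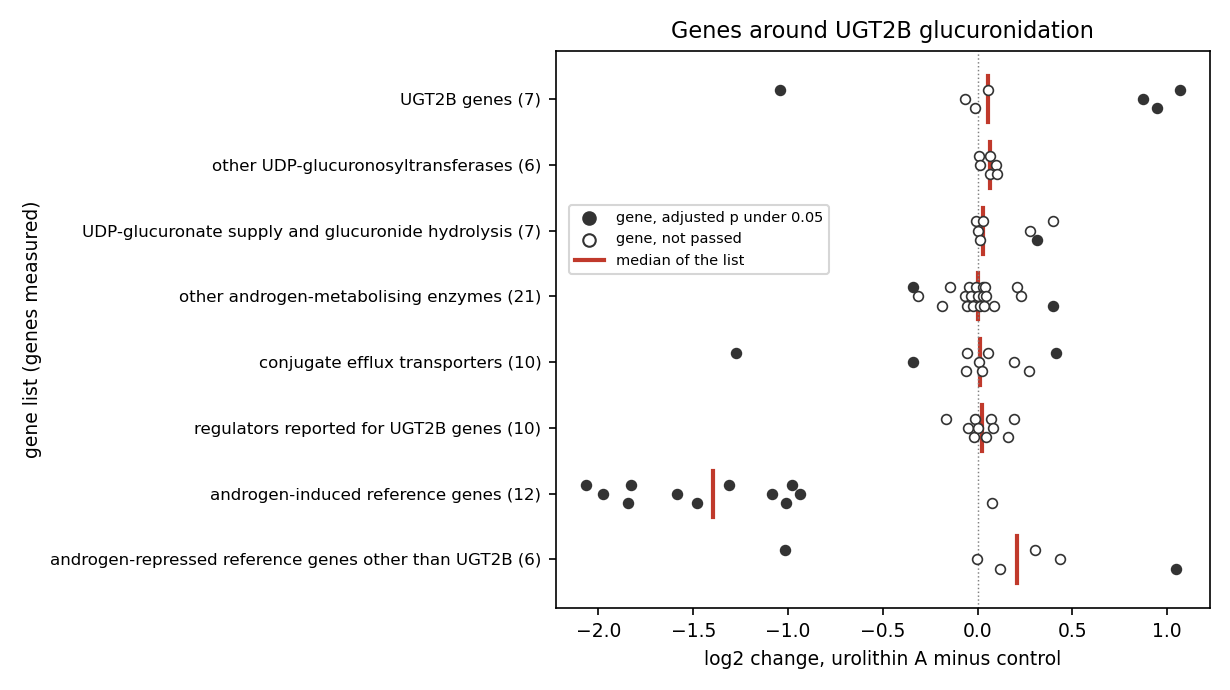
Log2 change, urolithin A minus control, of the genes measured in each list (points, filled where the limma adjusted p was under 0.05) with the list median (bar). The UGT2B genes lie on both sides of 0 and the androgen-induced genes lie between -2.07 and 0.07 around a median of -1.39, while the transferase, supply, enzyme and regulator lists centre near 0.

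Since UGT2B15 and UGT2B17 are known as androgen-repressed genes, reference genes of the androgen response are given beside them. The 12 androgen-induced genes measured had a median change of -1.39, and 11 fell, 0 rose and 1, STEAP4 (0.07), did not pass. Among all genes, 4.85% passed as higher and 5.31% as lower. The 6 with the smallest p were HOMER2 (-1.59), EAF2 (-1.83), KLK2 (-2.07), PMEPA1 (-1.84), TMPRSS2 (-1.98) and NDRG1 (-1.01), all with a limma adjusted p under 0.05. KLK2, a kallikrein protease of the prostate, read -0.26, -0.0008 and 0.22 in the controls and -2.25, -1.79 and -2.20 in the urolithin A arrays, with no overlap. Androgen-repressed genes outside the UGT2B family did not move as a block: their median was 0.21, and of the 6 measured 1 rose, 1 fell and 4 did not pass. CAMK2N1, an inhibitor of calmodulin-dependent kinase II, rose by 1.05 (limma adjusted p = 0.00111), close in size to UGT2B17, while SYT4, a synaptotagmin, fell by 1.02 (limma adjusted p = 0.000274). Of 10 measured transcription factors reported to act on UGT2B genes, 0 passed in limma and 1, FOXA1 (0.16, adjusted p = 0.183), had an unadjusted p under 0.05. That unadjusted level was reached by 4393 of all 18239 genes.

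Most UGT2B genes are known best from the liver, so hepatocyte markers were set beside them. With limma, 0 of 10 passed and 1, TTR (-0.53, adjusted p = 0.0935), had an unadjusted p under 0.05, and the median was 0.01. ALB, the albumin gene, changed by 0.15 (adjusted p = 0.336). Of the basal prostate markers 0 of 3 passed in limma and of the stromal and leukocyte markers 0 of 7, with 0 in either list at an unadjusted p under 0.05. Of 5 luminal markers KLK3 fell, FOLH1 rose by 0.31 and 3 did not pass. Among all genes, 4.85% passed as higher and 5.31% as lower, and 4393 of 18239 had an unadjusted limma p under 0.05. In lists this short, 0 calls are near the shares that passed.

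The genes whose 6 array values lay closest to those of UGT2B17, by root mean square difference of gene means, were CAMK2N1 (0.109), FBXO15 (0.122), TMEM106B (0.139), GSTA4 (0.141) and SOX8 (0.159). For UGT2B15 they were GSTA4 (0.0506), TMEM38B (0.0619), FBXO15 (0.0699), TMEM183A (0.0945) and BBC3 (0.0964). GSTA4, a glutathione transferase that detoxifies lipid aldehydes, and FBXO15, an F-box protein, were near both. UGT2B15 was closer to UGT2B17 (0.117) than all named genes but CAMK2N1. In the other direction, every gene named for UGT2B15 was closer to UGT2B15 than UGT2B17 was.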

How the data were processed

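RNA of 3 control and 3 urolithin A arrays was compared. The authors deposited log2 values. Per the submitters' processing notes they come from RMA (version not stated), a method that subtracts background, quantile-normalizes arrays and summarises the probes of a set. The file holds 49386 probe sets. The median of the 3 controls was exactly 0 in each, so levels are lost. No source names the base of the logarithm, which was taken as 2. Batches were not examined, since no plate or scan date was used here.

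After 93 control probe sets were set aside, 49293 entered a 2-group model without a block (limma 3.58.1, R 4.3.3), with Benjamini-Hochberg adjustment and a threshold of 0.05. The platform annotation gave 1 symbol for 45253 probe sets, several for 1327 and none for 2713. A second fit used the mean of the one-symbol probe sets of each of 18239 genes. No low-value filter was possible. Scripts were tested on simulated data.

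Replicate numbers come from the titles and were not taken as pairs. Named were every UGT2B probe set, up to 6 passing genes of each list by smallest p, and the 5 genes nearest to UGT2B17 and to UGT2B15. Other names were chosen after their values were seen. The members and lists were chosen with earlier results of these data known. Precision is limited by having 3 arrays a group. The alternatives were a replicate block, other scalings, other variance models, array weights, thresholds, probe set filters and leaving out arrays.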

Additional observations from a re-analysis of the deposited data

How the results depend on the processing

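The changes of the UGT2B17 gene and UGT2B15 gene stayed above 0 in every alternative run that held them, and both lost their calls against a 1.5-fold minimum. UGT2B15 has s and x probe sets alone, so the runs without those suffixes did not hold it. The UGT2B17 gene (adjusted p = 0.0646), UGT2B10 gene (0.187) and UGT2B28 gene (0.255) also lost theirs without variance moderation. Main counts were 7 UGT2B probe sets called (7 higher, 0 lower), 4 UGT2B genes called (3 higher, 1 lower) and 19 of 72 pathway genes called. These 72 are the measured genes of the transferase, supply, enzyme, transporter, regulator and androgen reference lists. Of their 19 calls, 11 were androgen-induced reference genes. Among all genes, 4.85% passed as higher and 5.31% as lower. Without variance moderation these were 3 probe sets (3 higher), 1 gene (1 higher, 0 lower) and 11 pathway genes. Against a minimum change of 1.5-fold they were 0 probe sets (0 higher), 0 genes (0 higher, 0 lower) and 7 pathway genes. At a threshold of 0.01, 2 genes passed, 0 of them lower. Without probe sets of s, x or a suffix 1 of 2 genes tested passed (1 higher, 0 lower) and 3 of 28 pathway genes. Without those of s or x suffix, chosen after seeing the data, 2 of 3 passed, 0 of them lower. Scaled on the hybridization controls, 1 probe set was lower. The lower gene, UGT2B28, was lost (0 lower) with the replicate block (adjusted p = 0.0677) and a trended and robust prior (0.0607). It was also lost with the median of probe sets. The same held in the fit without the array of each group highest in HLA-DRA, also chosen after seeing the data. With a trended and robust prior 5 probe sets were called, those of UGT2B17 and UGT2B15. Leaving out 1 array at a time, 0 to 1 probe sets and 0 to 1 genes were lower, and 2 to 4 genes were called. Same-numbered arrays had correlations of their deviations from the group means of 0.0738, 0.00319 and 0.15, not all over 0.1, so the numbers were not taken as pairs. Control replicates 1 and 3 correlated best with their own number, and control replicate 2 with urolithin A replicate 1 (0.0501). The replicate block gave 7 probe sets called and 23 pathway genes. It changed no other UGT2B call. AKR1C3 was reversed, at -0.061, without s, x and a probe sets. Over all genes, 885 rose and 969 fell. These counts were 334 and 312 under hybridization scaling and 262 and 298 without moderation. They were 574 and 718 with the trended and robust prior, and 9 and 34 against the 1.5-fold minimum. The causes were not tested.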

Other observations

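The genes whose 6 array values lay closest to those of UGT2B28 were MAK (root mean square difference 0.243), a kinase of male germ cells, C1orf116 (0.277), ELL2 (0.28), an elongation factor, GNB4 (0.283), a G protein subunit, and ENDOD1 (0.29). This set was chosen after the values were seen. Their changes, whose direction this choice fixes, were -0.90 for MAK, -1.18 for C1orf116, -1.08 for ELL2, -1.10 for GNB4 and -1.04 for ENDOD1. The value of MAK averages a probe set at -1.61 with another at -0.19.

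Control replicate 3 was the lowest control in 7 of the 7 probe sets of UGT2B17, UGT2B15 and UGT2B10, and the highest control for UGT2B28. It was the highest control in 8 of 12 androgen-induced reference genes. How often it was the lowest or highest control over all probe sets or genes was not counted. Several of the 7 probe sets read the same gene, so these counts describe the values and do not single out this array. The 18S ribosomal RNA control probe sets read 0.05, 0.01 and -0.45 in the controls (replicate 3 last), while the urolithin A arrays gave 0.03, -0.22 and -0.48. Without control replicate 3 the gene calls of UGT2B17 and UGT2B15 held, and that of UGT2B10 was lost (limma adjusted p = 0.0771).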
